A study of Drosophila melanogaster with 15 samples.

Results

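The odorant-binding protein (Obp) genes of *Drosophila melanogaster* were taken from a table of read counts of adult heads as every gene whose symbol starts with Obp followed by a digit. This gave 37 of the 13259 genes in the table, and 21 of them had a mean of at least 10 reads over the libraries and were tested among 9000 such genes. The study asked how gene expression and splicing change when parts of the spliceosome are reduced in the eye. Controls carried the driver alone (GMR/+), and the 2 other groups carried it with an RNAi transgene, GMR>prp4-RNAi (GD) or GMR>prp8-RNAi (GD), with 5 libraries of each genotype and 15 in all. All flies were 3 to 5 days old, were kept in 12 h light and 12 h dark for at least 3 cycles and were frozen at ZT12, the time of lights off. GMR is an eye promoter, so the knockdown acts in eye cells while the RNA came from whole heads, and each knockdown rests on 1 RNAi line. The study calls the libraries of a genotype independent biological replicates, and the labels do not say how many flies went into each, so p-values measure the spread between these libraries.

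Odorant-binding proteins are small secreted proteins with a fold held by disulfide bonds and a pocket for hydrophobic ligands. In the antenna, support cells release them into the fluid around the dendrites of olfactory neurons, where they bind odorants and pheromones. The family is wider than olfaction in the fly, since members are also made in taste bristles, in the fat body, in glia and in the male reproductive tract.

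Libraries were close in depth, with 11753627 to 11979892 reads on genes. The targeted genes did not pass the test in their own knockdown. CG7028, the gene of *prp4*, had 141 to 165 reads in controls and 111 to 149 in the prp4 knockdown (log2 fold change -0.23, adjusted p = 0.0993 from edgeR), and *Prp8* had 1339 to 1545 reads in controls and 1264 to 1572 in the prp8 knockdown (log2 fold change -0.11, adjusted p = 0.290). The library labelled GMR>prp8-RNAi replicate 14 gave the highest of these, 1572. The other 4 libraries of its group had 1305, 1311, 1264 and 1304 reads of *Prp8*, all below the lowest control. Reads of *w*, an eye pigment gene that commonly marks transgenes, numbered 454 to 509 in controls and were higher in every knockdown library. Only the knockdowns carried an RNAi transgene, so effects of the knockdown and of the insertion or its background cannot be told apart. Replicate 14 had 6629 reads of *w*, against 4081 to 4613 in the other 4 libraries of its group. The prp4 knockdown had 5524 to 6464. The calls, fold changes and list counts of members in the prp8 knockdown that are named below are therefore also given without replicate 14. Heads showed their defining transcripts, since a list of 10 photoreceptor genes reached between 113110 and 130263 CPM (reads scaled to the total of the library) in every library, most of it *ninaE*. Within that list *Rh3*, *Rh4* and *Rh5* were lower in the prp4 knockdown (log2 fold changes -0.73, -0.81 and -0.32) and *Rh4*, *Rh5* and *trp* in the prp8 knockdown (-0.83, -0.40 and -0.30), also without replicate 14. In the prp4 knockdown the glial genes *Gs2* and *moody* (-0.22 and -0.34) and the haemocyte gene *Hml* (-0.61) were lower too. The part of these markers in the Obp values below was not tested.

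The tested members lie in few places of the genome (dm6). Chromosome arm 2R holds 10 of them, the X chromosome 6 and 3R 5. *Obp19a*, *Obp19b*, *Obp19c* and *Obp19d* sit together within 5.24 kb of the X chromosome (20415744 to 20420979), and 5 tested members of the Obp56 group are spread over 118 kb of 2R (19697723 to 19816204). Counting only genes in the count table, *Obp57a*, *Obp57b* and *Obp57c* are 3 of 4 of a 2R group. In the same way, *Obp83cd*, *Obp83ef* and *Obp83g* are 3 of 5 of a 3R group, and *Obp99b* and *Obp99c* 2 of 4 of another. The genes are short, with 495 to 1101 bp of exon, and 22 of their 30 annotated introns are 100 bp or less. The count table widened most genes by 302 bp on each side of the annotation, so 17 of the 21 tested members share some sequence with the window of another gene, 10 of them on the same strand. Reads in shared sequence may be split or counted for either gene, and whether the counting used strand is not given in the sources used here.

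Reads of the family amounted to 0.396% ± 0.0228 of gene reads in controls, 0.444% ± 0.0296 in the prp4 knockdown and 0.434% ± 0.0291 in the prp8 knockdown (mean ± SD, n = 5 each). Controls ranged from 0.371% to 0.432%, overlapping the 0.405% to 0.475% of the prp4 knockdown and the 0.393% to 0.473% of the prp8 knockdown. A few genes made up nearly all of these reads. The 7 most highly expressed members held 97.3% to 98.1% of the family's reads in each library, and the 16 members that were not tested held 14 to 44 reads together.

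*Obp99c* had the highest level per length, with 1485 ± 81.0 CPM per kb of exon in controls (SD, n = 5). Its counts were 12418, 11872, 11792, 12151 and 10798 in controls, 12141, 11401, 11873, 13978 and 14865 in the prp4 knockdown and 11207, 11742, 12182, 11322 and 12279 in the prp8 knockdown. The 3 genotypes overlapped, with the 2 highest libraries being prp4 replicates 9 and 10.

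*Obp44a*, a member known from glia, followed with 994 ± 142 CPM per kb. Its counts were 14456, 12695, 12006, 14274 and 10118 in controls, 12445, 10795, 10908, 12756 and 12217 in the prp4 knockdown and 12342, 10888, 12949, 11000 and 16401 in the prp8 knockdown. The lowest library was a control and the highest, prp8 replicate 15, belonged to a group whose other libraries lay within the control range.

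*Obp19d*, also called Pbprp2, had 873 ± 57.7 CPM per kb in controls. Its counts were 12500, 11263, 11670, 10417 and 11294 in controls, 15644, 14146, 13342, 11362 and 11607 in the prp4 knockdown and 15859, 13398, 14227, 12833 and 11782 in the prp8 knockdown. Higher values prevailed in both knockdowns without separating from controls (log2 fold changes 0.22 and 0.24, adjusted p = 0.104 and 0.0918 from edgeR, and 0.27 with adjusted p = 0.0652 in the prp8 knockdown without replicate 14).

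*Obp99b*, known from the fat body of the head, had 489 ± 45.6 CPM per kb in controls and the widest spread among the 4 most highly expressed members in the knockdowns. Its counts were 3675, 3871, 3416, 3068 and 3229 in controls, 3438, 3739, 4024, 6713 and 9380 in the prp4 knockdown and 2322, 3533, 2644, 2799 and 5454 in the prp8 knockdown. Only prp4 replicates 8, 9 and 10 and prp8 replicate 15 lay above every control. The fold change of the prp4 knockdown did not pass the test (log2 fold change 0.69, adjusted p = 0.0923). When any 1 library was omitted it ranged from 0.39 to 0.82, with adjusted p from 0.0401 (without prp4 replicate 6) to 0.186.

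*Obp56d*, found in antennae and other sense organs, *Obp49a*, a taste-organ member that has been tied to the avoidance of bitter food, and *Obp56e* came next at 299 ± 24.5, 230 ± 49.8 and 205 ± 26.2 CPM per kb. A 10.6-fold step separated *Obp56e* from *Obp57b*, at 19.3 ± 0.624 CPM per kb. *Obp56a* (19.2 ± 1.81), *Obp56g* (17.8 ± 7.33), *Obp18a* (17.7 ± 1.97), *Obp19b* (14 ± 4.97) and *Obp57c* (13.2 ± 1.64) lay close to it. *Obp8a* (7.52 ± 1.63), *Obp56h* (5.79 ± 1.22), *Obp19c* (4.92 ± 0.767), *Obp83g* (3.49 ± 0.696), *Obp57a* (2.32 ± 0.782), *Obp19a* (1.65 ± 0.312), *Obp83ef* (1.40 ± 0.543) and *Obp83cd* (0.936 ± 0.280) made up the lowest levels. In this order the control libraries of neighbours overlapped, except between *Obp99c* and *Obp44a*, *Obp19d* and *Obp99b*, *Obp99b* and *Obp56d*, *Obp56e* and *Obp57b*, and *Obp57c* and *Obp8a*.

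**Figure D1:**
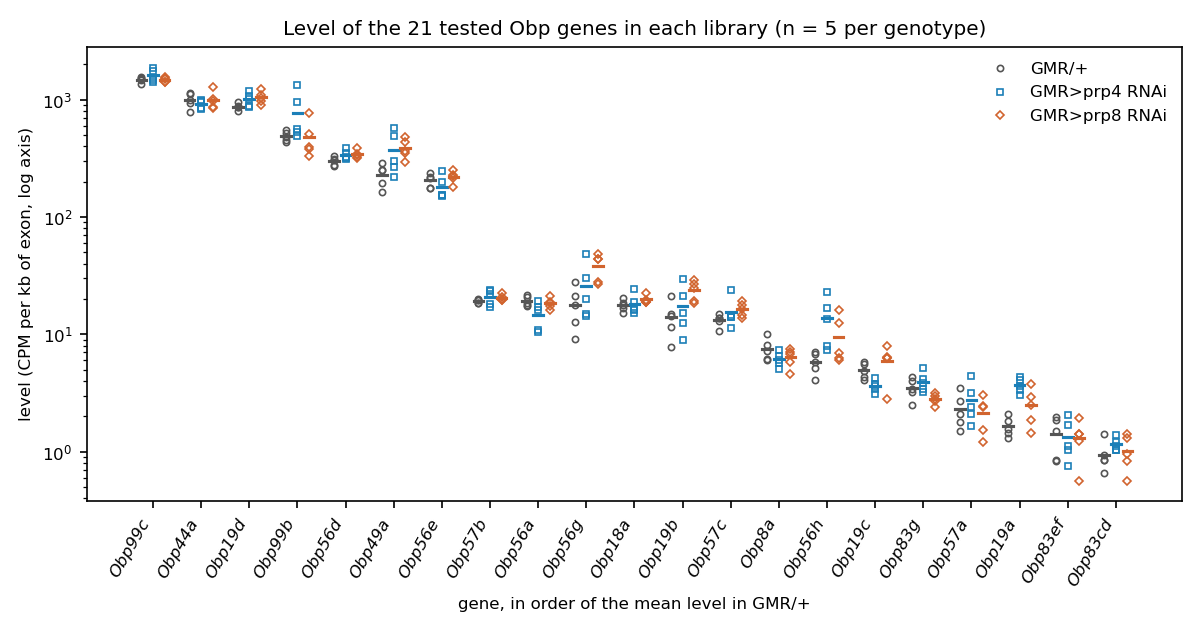
Level of the 21 tested Obp genes in CPM per kb of exon (log axis), with 1 point per library and a short line at the mean of each genotype (n = 5). The 7 members on the left have means above 200 CPM per kb in controls, and the control means of the other 14 lie 10.6-fold lower or more. Single control libraries of *Obp49a* and *Obp56e* lie below 200 CPM per kb.

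Of 8 members listed as antennal, 7 were in the table and 2 were tested, *Obp56d* at 2965 to 4211 reads and *Obp19a* at 10 to 33. The others had few reads. *Obp83a* and *Obp83b*, also called OS-F and OS-E and abundant in the antennal fluid, had 0 to 4 and 0 to 2 reads per library, *Obp69a* had 0 to 4 and *Obp84a* had 0 or 1. *Obp28a*, another antennal member, had 1 to 24 reads and a mean of 9.67, just under the threshold of 10, while the lowest tested member, *Obp83cd*, had a mean of 11.1. *Obp99d* (0 to 8 reads), *Obp56c* (1 to 6) and *Obp99a* (0 to 5) also reached 3 reads in a library, and 10 members stayed below 3 reads in every library. *lush*, a pheromone-binding member of the family whose symbol falls outside the rule, had 2 to 13 reads, and *Orco*, the co-receptor of odorant receptors, had 20 to 47. Members of taste organs were measured alongside these, with *Gr66a* and *Gr32a*, receptors of bitter-sensing neurons, at 5 to 14 and 15 to 35 reads.

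The first comparison asked which members differed between the prp4 knockdown and controls. In RNA of whole heads, a change in the number of cells of a type and a change in RNA per cell cannot be told apart. Of the 21 members, 2 were higher and none was lower at an adjusted p under 0.05, which is near the background of 9.57% of all tested genes (4.94% higher and 4.62% lower). The members had a median log2 fold change of 0.20 with 15 of 21 above 0, while the median of all 9000 genes was -0.00082 with 4474 above 0. At an unadjusted p under 0.05 there were 8 of 21 members and 24.1% of all genes.

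*Obp19a*, an antennal member with low expression in these heads, rose in the prp4 knockdown. Controls had 14, 12, 11, 10 and 16 reads, the prp4 knockdown 33, 26, 28, 23 and 31, and the prp8 knockdown 22, 19, 14, 29 and 11. Every prp4 library was above every control, and the prp8 libraries spanned both. The log2 fold change of 1.17 ± 0.18 (SE) had an adjusted p of 0.00104 from edgeR and lay between 1.10 and 1.26 when any 1 library was omitted. Because its window runs into that of *Obp19b* on the same strand, reads spanning its own 2 introns were counted as well. There were 2, 3, 1, 1 and 5 in controls, 9, 6, 8, 4 and 13 in the prp4 knockdown and 4, 5, 3, 5 and 3 in the prp8 knockdown. Spliced reads were thus also more numerous in the prp4 libraries, with 1 prp4 library below the highest control.

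*Obp56h*, a member of the Obp56 group linked to male mating behaviour, also rose. Controls had 48, 41, 29, 36 and 50 reads, the prp4 knockdown 163, 119, 96, 52 and 56, and the prp8 knockdown 48, 87, 42, 114 and 44. The prp4 libraries did not overlap with controls, but replicates 9 and 10 exceeded the highest control by no more than 6 reads. It changed by 1.26 ± 0.29 (log2, SE) with an adjusted p of 0.0144, and by 1.0 to 1.41 when any 1 library was omitted (adjusted p from 0.0041 to 0.0431). *Yp1* and *Yp2* are yolk protein genes that are expressed mainly in females, and among prp4 libraries both were also lowest in replicates 9 and 10. *Yp1* had 119, 87, 99, 4 and 19 reads in the prp4 knockdown and 55, 25, 9, 23 and 49 in controls, and *Yp2* had 90, 54, 66, 5 and 9 against 38, 24, 9, 26 and 18. None of the 8 sex-biased markers passed the test and none was at 0. Their summed level, 1741 to 1887 CPM in the prp4 knockdown and 1690 to 1927 CPM in controls, is mostly that of the male-specific RNA *roX1*, with 17571 to 19522 and 17465 to 19773 reads, and so says little about *Yp1* and *Yp2*. The part of these markers in the change of *Obp56h* was not tested.

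Groups without overlap were seen for 2 of 21 members, *Obp19a* and *Obp56h*, beside 9.12% of all genes. *Obp19c* (log2 fold change -0.42, adjusted p = 0.0668), *Obp49a* (0.70, adjusted p = 0.0755) and *Obp56d* (0.19, adjusted p = 0.0861) came next. Without control replicate 1, *Obp19c* passed the test (-0.48, adjusted p = 0.0462), as did *Obp49a* without prp4 replicate 9 (0.83, adjusted p = 0.0283). Over all omissions of 1 library, *Obp19c* ranged from -0.48 to -0.36, with an adjusted p of up to 0.160. *Obp49a* ranged from 0.49 to 0.83, with an adjusted p of up to 0.169. In the Obp19 group, which spans 5.24 kb, *Obp19a* was higher while its neighbours had log2 fold changes of 0.34 (*Obp19b*), -0.42 (*Obp19c*) and 0.22 (*Obp19d*), none past the test.

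**Figure D2:**
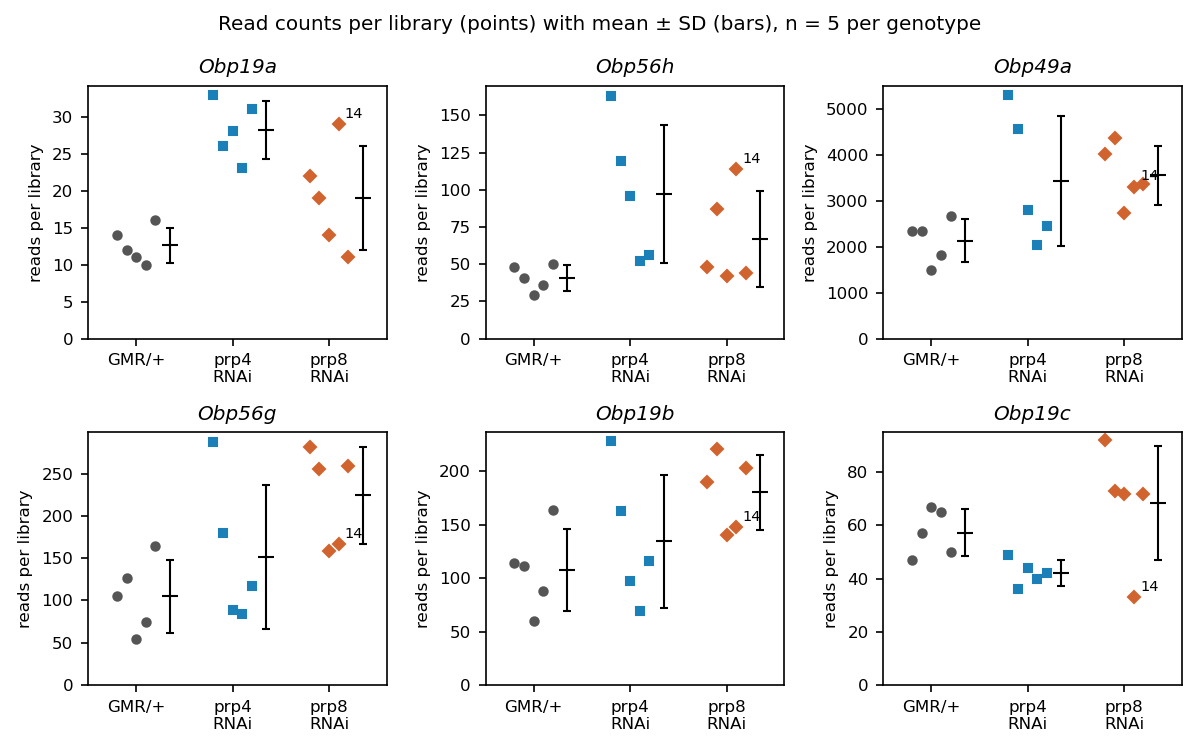
Reads per library (points) of the members that passed the test in a comparison with controls, and of *Obp19b* and *Obp19c*, with the mean and SD of each genotype beside the points (n = 5). The 5 prp4 libraries of *Obp19a* lie between 23 and 33 reads, above the 10 to 16 of controls, and the number 14 marks the library labelled GMR>prp8-RNAi replicate 14.

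The second comparison set the prp8 knockdown against controls. Here 2 of 21 members were higher and none was lower, against a background of 4.7% of all genes (2.41% higher and 2.29% lower). The members had a median log2 fold change of 0.10 with 13 of 21 above 0, and all genes had a median of 0.00028 with 4506 of 9000 above 0. Unadjusted p-values under 0.05 were found for 8 of 21 members and 20.8% of all genes. Without replicate 14 the median was 0.16, with 16 of 21 above 0 and 7 at an unadjusted p under 0.05. Of the 4 tested members listed for taste organs 2 were called, with log2 fold changes from 0.14 to 1.09, and 3 of them varied together between libraries, as described below.

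*Obp49a*, a secreted protein of taste sensilla, had 2345, 2338, 1503, 1814 and 2666 reads in controls, 5314, 4562, 2796, 2048 and 2455 in the prp4 knockdown and 4020, 4371, 2739, 3310 and 3360 in the prp8 knockdown. All 5 prp8 libraries were above every control, which was the case for 1 of 21 members and 5.71% of all genes, whereas prp4 replicates 9 and 10 lay within the control range. It was 0.73 ± 0.15 higher (log2, SE) in the prp8 knockdown, with an adjusted p of 0.0133, and 0.76 higher without replicate 14 (adjusted p = 0.0112). In a fit of all 15 libraries the same difference had an adjusted p of 0.0571. Reads across its introns numbered 197, 231, 109, 201 and 229 in controls, 557, 391, 270, 169 and 216 in the prp4 knockdown and 382, 386, 237, 267 and 299 in the prp8 knockdown. These spliced reads separated the prp8 libraries from controls as the gene counts did.

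*Obp56g*, a member known from taste bristles of the labellum and from the male ejaculatory bulb, had 105, 126, 54, 75 and 165 reads in controls, 287, 180, 89, 84 and 117 in the prp4 knockdown and 281, 256, 158, 167 and 259 in the prp8 knockdown. In reads, prp8 replicate 13 fell below control replicate 5, so these groups overlapped by 1 library. In normalized counts, prp8 replicates 13 and 14 (13.31 and 13.68) both lay below control replicate 5 (13.73). The log2 difference was 1.09 ± 0.24 (SE, adjusted p = 0.0211), and 1.18 without replicate 14 (adjusted p = 0.0112). The call was lost without control replicate 4 (0.99, adjusted p = 0.0644) or prp8 replicate 11 (1.0, adjusted p = 0.0663).

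*Obp19b*, another taste-organ member, had 114, 111, 60, 88 and 164 reads in controls, 228, 163, 97, 69 and 116 in the prp4 knockdown and 190, 221, 140, 148 and 203 in the prp8 knockdown. It missed the threshold in the prp8 knockdown (log2 fold change 0.74, adjusted p = 0.0553) and passed it without replicate 14 (0.81, adjusted p = 0.0364), when 3 of 21 members and 5.91% of all genes were called. *Obp18a*, the remaining tested member of taste organs, had 133 to 178 reads in controls and 163 to 196 in the prp8 knockdown (0.14, adjusted p = 0.391, and 0.16 with adjusted p = 0.363 without replicate 14).

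Some olfactory markers were also higher in the prp8 knockdown. Of 12 listed, 10 were in the table and 5 were tested, and 3 of these were called higher, where 2.41% of all genes were. They were *a10* (log2 fold change 1.26, adjusted p = 0.0158), *Ir76b* (0.74, adjusted p = 0.0464) and *Snmp1* (0.40, adjusted p = 0.0106), and *a10* and *Snmp1* were also called without replicate 14. *a10* had 51, 31, 26, 44 and 28 reads in controls and 98, 104, 126, 57 and 51 in the prp8 knockdown. Its prp8 replicate 15 thus had no more reads than the highest control. *Orco* (0.21, adjusted p = 0.619) and *Ir25a* (0.56, adjusted p = 0.206) did not pass. The summed level of the list was 17.2 to 23.9 CPM in controls, 17.4 to 31.1 CPM in the prp4 knockdown and 27.2 to 34.9 CPM in the prp8 knockdown, so the prp8 libraries lay above controls. Of 6 gustatory receptor and channel genes, 2 were tested and none was called, with a summed level of 3.04 to 4.47 CPM in controls and 3.55 to 6.01 CPM in the prp8 knockdown. No marker of either list was at 0 in all libraries. The part of these markers in the changes of *Obp49a* and *Obp56g* was not tested.

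The knockdowns were then compared with each other in a fit of all 15 libraries. No member passed the test in edgeR, where 2.24% of all genes did (1.27% higher and 0.978% lower in the prp4 knockdown), and 4 of 21 had an unadjusted p under 0.05, beside 16.1% of all genes. DESeq2 called 1 member, *Obp19c*, and limma-voom called 0. Without replicate 14 edgeR called 2 members, *Obp19c* and *Obp19a*, and 6.32% of all genes, and 6 members had an unadjusted p under 0.05.

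*Obp19c* had 47, 57, 67, 65 and 50 reads in controls, 49, 36, 44, 40 and 42 in the prp4 knockdown and 92, 73, 72, 33 and 72 in the prp8 knockdown. The value of 33 belongs to replicate 14, and the other 4 prp8 libraries lay above every prp4 library. Its log2 difference between the prp4 and prp8 knockdowns was -0.67 (95% interval -1.09 to -0.25, adjusted p = 0.0885), and -0.85 without replicate 14 (interval -1.13 to -0.57, adjusted p = 0.000403).

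*Obp19a* differed by 0.59 (interval 0.15 to 1.03, adjusted p = 0.152) with all libraries and by 0.79 without replicate 14 (interval 0.36 to 1.21, adjusted p = 0.0241). Replicate 14 had 29 reads, the highest of its group. *Obp83g* had 27, 22, 29, 23 and 17 reads in controls, 35, 22, 26, 23 and 28 in the prp4 knockdown and 16, 21, 20, 19 and 18 in the prp8 knockdown. The knockdowns did not overlap for this gene, as for 2.92% of all genes, but the difference of 0.53 did not pass the test (interval 0.16 to 0.91, adjusted p = 0.136, and 0.53 with adjusted p = 0.135 without replicate 14). For *Obp49a* the knockdowns differed by -0.04, with an interval of -0.49 to 0.42, and for *Obp56g* by -0.55 (-1.18 to 0.08). Without replicate 14 these differences were -0.06 and -0.64. A call in only 1 of the knockdowns therefore does not show that the knockdowns differ.

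**Figure D3:**
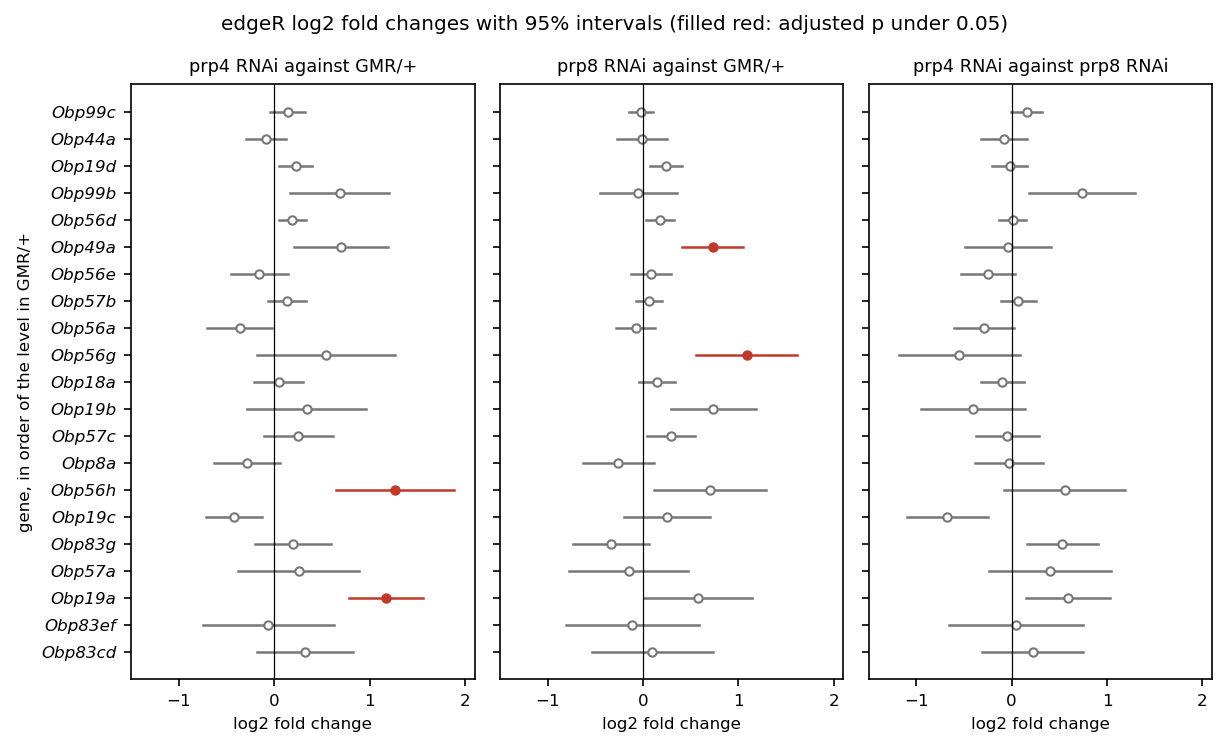
Log2 fold change of each tested member with its 95% interval from edgeR, for the prp4 knockdown against controls, the prp8 knockdown against controls and the prp4 against the prp8 knockdown. Filled red points mark an adjusted p under 0.05, which are *Obp19a* and *Obp56h* in the first panel, *Obp49a* and *Obp56g* in the second and none in the third.

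The remaining members changed little or within wide errors. Among the 19 members not past the threshold in the prp4 knockdown, log2 fold changes ran from -0.42 to 0.70, and in the prp8 knockdown from -0.34 to 0.74. In the prp8 knockdown *Obp99c* differed from controls by -0.02 (95% interval -0.14 to 0.11), and *Obp56d* by 0.18 (0.03 to 0.32, adjusted p = 0.151). *Obp44a* differed by -0.09 in the prp4 knockdown (-0.30 to 0.12) and by -0.01 in the prp8 knockdown (-0.27 to 0.25). Without replicate 14 the prp8 differences were 0.0033 for *Obp99c*, 0.21 for *Obp56d* (adjusted p = 0.0944) and 0.05 for *Obp44a*, and the range over the members not called ran from -0.33 to 0.43.

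Both tested members listed for seminal fluid, *Obp8a* and *Obp56e*, were measured in heads at 33 to 71 and 959 to 1585 reads, and neither passed a test. *Obp56g*, also known from the male ejaculatory bulb, was listed for taste organs and is given above. *Obp57b*, with 170 to 237 reads, was the member with the smallest spread among controls, with a coefficient of variation of 3.97%. *Obp83cd* and *Obp83ef*, at 6 to 15 and 6 to 22 reads, had intervals of -0.18 to 0.82 and -0.75 to 0.62 on the log2 scale in the prp4 knockdown, so only large differences would have been detectable for them at this depth.

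Because PRP4 and PRP8 are parts of the tri-snRNP, a complex of the spliceosome, the use of splice junctions and exons within the members was compared too. Only *Obp19b* and *Obp19d* had at least 2 junctions with enough reads. Neither was called for junction use in either knockdown, where 0.562% (prp4) and 0.291% (prp8) of all tested genes did, and their smallest unadjusted p was 0.772. For exons, 15 members entered the test in each comparison and none was called, against 0.962% and 0.601% of all tested genes. None was called without replicate 14 either. For *Obp56g*, *Obp56h* and *Obp99b* the features compared were versions of the same exon with different ends and nearly the same reads. These members could therefore not have been called. The smallest p was that of *Obp57b* in the prp8 knockdown (unadjusted p = 0.0160, adjusted p = 0.948), the only one under 0.05. Its first exon (2R, 20503949 to 20504328 as the table widens it), whose window runs into *Obp57c*, had a mean of 53.6 reads in the prp8 knockdown and 35.6 in controls.

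Reads across annotated introns were found for 19 of the 21 tested members. *Obp19d* had 10458 to 16327 reads across its 3 introns, *Obp99c* 1457 to 2121 across the intron at 29686213 to 29686681 of 3R, and *Obp44a* 1055 to 2046 across its single intron. *Obp56h* had 9, 7, 6, 7 and 3 such reads in controls and 30, 17, 5, 8 and 12 in the prp4 knockdown, which overlapped. *Obp56g* had 0 to 5 per library, too few to set beside its gene counts. No junction kept in this way matched the annotated intron of *Obp99b*, of 57 bp, although 2322 to 9380 reads fell on the gene. Its spliced reads can therefore not be given.

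Members also varied between libraries of the same genotype, and some did so together. After removal of each genotype's mean from log2 CPM, correlations were computed over the 15 libraries for 210 pairs of members and 924 pairs of a member and a marker gene. This was decided after the counts had been seen. Across pairs of members the median r was 0.0818, from -0.805 to 0.965. Pairs of neighbours in 1 genomic group had a median r of 0.0497 (23 pairs) and pairs from different groups 0.0905 (187 pairs). The points share library preparation and depth, and 4 pairs of members passed an adjusted p of 0.05 by both Pearson's r and Spearman's rho.

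The 4 pairs joined *Obp49a*, *Obp56g*, *Obp19b* and *Obp56d*, which lie on 2 chromosomes. *Obp56g* and *Obp19b* had r = 0.965 and rho = 0.936 (permutation p = 1e-05, the smallest that 100000 permutations within genotypes can give, and 1e-04; adjusted p = 0.0113 and 0.0340), and r = 0.940 without the 2 libraries farthest from the median. *Obp49a* followed *Obp19b* (r = 0.931, rho = 0.921, permutation p = 2e-05 and 0.00016, adjusted p = 0.0113 and 0.0340) and *Obp56g* (r = 0.914, rho = 0.911, permutation p = 7e-05 and 0.00028, adjusted p = 0.0198 and 0.0397), with r = 0.874 and 0.870 without the 2 farthest libraries. *Obp56d* followed *Obp49a* (r = 0.849, rho = 0.854, permutation p = 0.00023 and 0.00018, adjusted p = 0.0435 and 0.0340), with r = 0.840 without them. Control replicates 3 and 4 and prp4 replicate 9 were low and control replicate 5 and prp4 replicate 6 high in all of *Obp49a*, *Obp56g* and *Obp19b*. These members are therefore not independent observations of a comparison.

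With marker genes, 4 pairs passed both tests. *Obp49a* and *Obp19b* followed *Ir25a*, a co-receptor of ionotropic receptors in olfactory and taste neurons, with r = 0.796 and 0.821 and rho = 0.793 and 0.836 (permutation p = 0.00047, 0.00069, 0.00025 and 8e-05, adjusted p = 0.0460, 0.0460, 0.0397 and 0.0340), and r = 0.71 and 0.788 without the 2 farthest libraries. *Ir25a* had 17 to 62 reads per library.

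*Obp56h* followed *Yp1* (r = 0.832, rho = 0.911, permutation p = 0.0008 and 6e-05, adjusted p = 0.0499 and 0.0340), with r = 0.825 without the 2 farthest libraries. In the prp8 knockdown, replicates 12 and 14 had the most reads of both, with 87 and 114 of *Obp56h* and 98 and 85 of *Yp1*, while replicate 15 had 44 and 1. *Obp44a* followed *Gs2*, a glutamine synthetase of glia (r = 0.865, rho = 0.893, permutation p = 0.00031 and 0.00017, adjusted p = 0.0460 and 0.0340), with r = 0.815 without the 2 farthest libraries. *Gs2* itself fell by 0.22 on the log2 scale in the prp4 knockdown (adjusted p = 0.0470), where *Obp44a* did not pass the test.

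*Obp99b* and *Lsp2*, a storage protein gene of the fat body, had r = 0.887 and rho = 0.879 (permutation p = 0.00093 and 0.0014), which just missed the threshold (adjusted p = 0.0502 and 0.0794). *Lsp2* had 173712 and 202339 reads in prp4 replicates 9 and 10 and 92559 in prp8 replicate 15, the libraries with the most reads of *Obp99b*, and 14912 to 75431 in the others. The summed level of the fat body list ranged from 5649 to 8881 CPM in controls, from 4560 to 19848 CPM in the prp4 knockdown and from 3518 to 10580 CPM in the prp8 knockdown, with none of its 5 tested genes past the test. The part of these genes in the values of *Obp99b* was not tested. Without replicate 14 these 9 correlations ran from 0.810 to 0.964. Other marker pairs passed the permutation test by r and not by rho. They included *Obp49a* with *Ir76b* (r = 0.905, adjusted p = 0.0249, and 0.0526 by rho). *Obp56h* with *Yp2* (r = 0.915, adjusted p = 0.0460 and 0.0582) and *Obp19b* with *Cyp4d21* (r = 0.859, adjusted p = 0.0460 and 0.0988) were also among them.

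**Figure D4:**
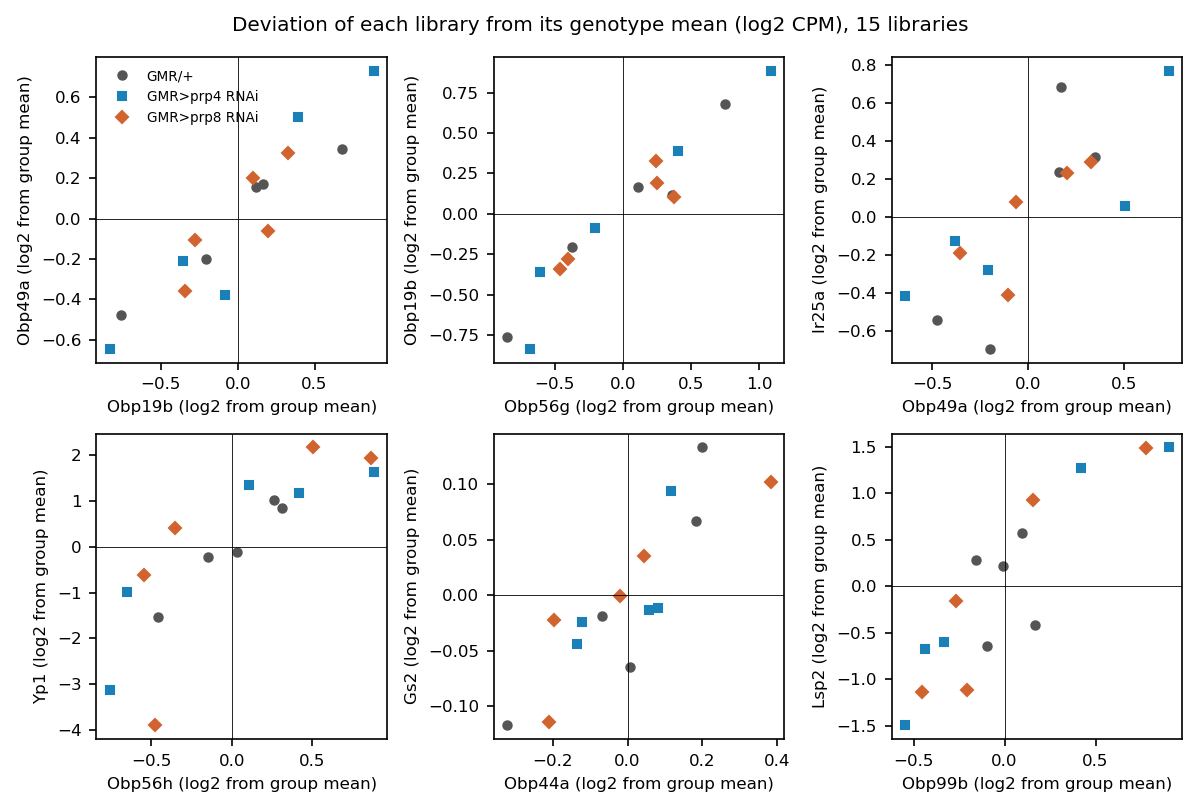
Deviation of each library from the mean of its genotype in log2 CPM for 6 pairs of genes, with 1 point per library (n = 15). Libraries high in *Obp19b* were also high in *Obp49a* and *Obp56g*, and *Obp56h*, *Obp44a* and *Obp99b* followed *Yp1*, *Gs2* and *Lsp2*. The pair of *Obp99b* and *Lsp2* just missed the threshold.

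Other genes that act around the odorant receptors were taken as a list of 39, of which 36 were in the table and 18 were tested. It holds carriers, enzymes that break down odorants and membrane proteins of chemosensory neurons. In the prp4 knockdown 4 were called, where 9.57% of all genes were (4.94% higher and 4.62% lower). Higher were *PebIII*, a secreted protein of the chemosensory protein family (log2 fold change 0.28, adjusted p = 0.00652), and the cytochrome P450 gene *Cyp6w1* (0.35, adjusted p = 0.00964). The 2 that were lower encode relatives of the cholesterol carrier NPC2, *Npc2a* (-0.22, adjusted p = 0.0265) and *Npc2g* (-0.25, adjusted p = 0.0195). The median of the 18 was 0.17.

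In the prp8 knockdown 4 of the 18 were higher and 1 was lower, with a median of 0.13, against 2.41% and 2.29% of all genes, and the same 5 were called without replicate 14. *CheA87a*, of a family expressed in taste organs, changed by 1.62 ± 0.24 (log2, SE, adjusted p = 0.00175), with 7 to 18 reads in controls and 28 to 51 in the prp8 knockdown, which did not overlap. *Phk-3*, another gene of the chemosensory protein family, rose by 0.52 (adjusted p = 0.00883), and *a10* and *Snmp1*, given above among olfactory markers, complete the higher genes. *Est-6*, a secreted esterase, fell by 0.45 on the log2 scale (adjusted p = 0.00128). Between the knockdowns, *Est-6* (0.26, adjusted p = 0.0272) and *Cyp28a5* (0.27, adjusted p = 0.0254) were higher in the prp4 knockdown, and the median of the list was -0.08. Without replicate 14, *Npc2a* and *Phk-3* were called as well, both lower in the prp4 knockdown.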

How the data were processed

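The authors isolated RNA from heads, made libraries with the SENSE kit of Lexogen, aligned the reads to BDGP6 with STAR 2.5.3a, removed ribosomal and mitochondrial reads and resampled aligned reads to equal depth. The deposited values are whole read counts per gene, exon and junction, which hides the libraries' own sequencing depth. Genes were placed in the Ensembl annotation of dm6. Genes with a mean of at least 10 counts over 15 libraries were tested with edgeR 4.0.16 in R 4.3.3 (TMM, quasi-likelihood test, Benjamini-Hochberg over 9000 genes, threshold 0.05), 5 libraries against 5, or with all 15 for the knockdowns against each other. Junction and exon use was tested with diffSpliceDGE (at least 10 counts in 5 libraries, Simes). Alternatives were limma-voom 3.58.1, DESeq2 1.42.0, other scalings and filters, and leaving out each library. Correlations used Python 3.11.15 with 100000 permutations. On simulated data with 200 genes changed 2-fold, the edgeR test of the prp4 comparison recovered 191, with 12 false calls among 9000 genes. The simulation gave genes of similar level the same spread. It therefore does not give the power for members with a wide spread, such as *Obp56g* (coefficient of variation 54.6% in the prp4 knockdown). All tested members were named, those past the threshold, the 4 with the highest levels and the 3 with the smallest p where none passed with every library's count. Members and lists were chosen with earlier results of these data known. Intervals cover the spread between libraries, and 14 Obp genes of the annotation were not analysed here.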

Additional observations from a re-analysis of the deposited data

Results flagged for a closer look

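Among 63 sets of 5 libraries (21 members in 3 genotypes), 1 had a library that stood apart by Dixon's criterion, where chance gives about 1 in 20. *Obp18a* had 196 reads in GMR>prp8-RNAi replicate 11 and 163 to 170 in the other 4 libraries of that genotype, and the gap to the nearest library was 0.749 of the whole range of normalized counts.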

How the results depend on the processing

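No paired analysis was possible because each library carries its own number, so no library of a genotype is linked to one of another. With each library left out, 2 to 3 members were called in the prp4 knockdown, 1 to 3 in the prp8 knockdown and 0 to 2 between the knockdowns, and all genes called ranged from 553 to 917 (main count 861), from 216 to 544 (423) and from 75 to 569 (202). Counts of genes moved over 1.5 times without control replicate 3 (553) in the prp4 knockdown, without control replicate 3 (228) or 4 (221) or prp8 replicate 11 (216) or 13 (261) in the prp8 knockdown, and without prp4 replicate 9 (118) or 10 (114) or prp8 replicate 11 (75), 13 (88) or 14 (569) between the knockdowns. DESeq2 called 4 members in the prp8 knockdown and 1 member and 368 genes between the knockdowns, a fit of all 15 libraries called 1 member in the prp8 knockdown, and a fit of the 10 knockdown libraries called 91 genes between them. No member was called for junction or exon use under any alternative. Without *Obp19d* the family's share of reads was 0.300% in controls, 0.333% in the prp4 and 0.319% in the prp8 knockdown, and with each library left out it ranged from 0.387% to 0.403%, 0.436% to 0.453% and 0.425% to 0.445%. Of 1070 log2 fold changes of single members under alternatives, 3 fell below and 14 rose above the threshold, and 48 changed sign, none past the threshold. With library size only, *Obp44a* (prp8 knockdown) came to 0.00758 and *Obp56d* (between the knockdowns) to -0.019. The others changed sign when a library was left out, where the log2 fold change ranged for *Obp18a* from -0.069 to 0.10 and *Obp83ef* from -0.27 to 0.092 in the prp4 knockdown. It ranged for *Obp44a* from -0.12 to 0.048, *Obp57a* from -0.31 to 0.047, *Obp83cd* from -0.043 to 0.28, *Obp83ef* from -0.29 to 0.079, *Obp99b* from -0.30 to 0.060 and *Obp99c* from -0.052 to 0.0082 in the prp8 knockdown. It ranged for *Obp19d* from -0.083 to 0.039, *Obp44a* from -0.13 to 0.036, *Obp49a* from -0.24 to 0.099, *Obp56d* from -0.033 to 0.058, *Obp57c* from -0.24 to 0.045, *Obp83ef* from -0.17 to 0.23 and *Obp8a* from -0.12 to 0.045 between the knockdowns. The cause of these differences between settings was not tested.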
